A study of Bos taurus with 12 samples.

Results

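MBD1, MBD2, SMARCE1 and L3MBTL1 are 4 genes whose proteins read or remodel chromatin, and their transcripts were followed in the peripheral white blood cells (PWBCs) of 12 beef heifers. They were taken by gene identifier from the 27607 genes of the count table: MBD1 (ENSBTAG00000003801), MBD2 (ENSBTAG00000037457), SMARCE1 (ENSBTAG00000015308) and L3MBTL1 (ENSBTAG00000048526). All 4 were among the 13012 genes that passed the filter on low counts. The study had named them as regulators from network scores of the same heifers, so their number of connections, given further on, is not independent of that choice. L3MBTL1 was also on the study's list of differentially expressed genes from these libraries, so its group difference below is no independent evidence.

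The heifers were Simmental-Angus crosses bled 2 days before artificial insemination (AI), and each gave 1 poly(A) RNA library. The 6 fertile heifers became pregnant to the first AI, and the 6 subfertile heifers were still open after AI and a following season of natural service. All of them, in both groups, had received GnRH, a progesterone insert (CIDR) and prostaglandin to synchronise ovulation, and semen of a single sire was used. The labels give a reproductive tract score of 5 to fertile 2 and subfertile 1 and of 4 to the other 10 heifers. Groups were assigned after the outcome was known, and so describe an outcome and not a genotype or a treatment.

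Methyl groups on cytosine mark much of the silent part of a mammalian genome, and proteins with a methyl-CpG binding domain translate that mark into a chromatin state. MBD1 binds methylated CpG and works with ATF7IP and its partner SETDB1, an enzyme that methylates histone H3 at lysine 9, while MBD2 brings the nucleosome remodelling and deacetylase complex (NuRD) to methylated promoters. SMARCE1, also called BAF57, is a high-mobility-group subunit of the BAF and PBAF complexes, which slide nucleosomes with energy from ATP and assist nuclear hormone receptors. L3MBTL1 is a malignant brain tumour (MBT) domain protein that binds lower methylation states of histone H4 lysine 20 and compacts nucleosomes. In blood cells these systems are known for holding lineage genes on or off.

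Library totals lay between 14010736 and 21278761 counts, and the groups overlapped in depth. None of the 66 pairs of libraries held identical counts. Fertile 6 stood apart from the other heifers at an end of the first principal component, which held 23.1% of the variance, with fertile 1 and subfertile 1 at the other end. The same library was highest for the summed level of 3 platelet markers (ITGA2B, GP9 and ITGB3), at 2208 CPM (counts scaled to the size of the library) against 171 to 652 CPM in the other 11 heifers. Several results are therefore also given without it. T cell (CD3E and CD2) and B cell (CD79A) markers were present in every library, at 401 to 902 CPM and 335 to 719 CPM, and the neutrophil receptor CXCR2 was at 0 to 7.81 CPM, with 0 in fertile 6. No gene of the general leukocyte list (0 of 4) and none of the erythroid list (0 of 7) could be matched to an identifier. In mixed blood cells, fewer cells of a type and less RNA per cell cannot be told apart.

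L3MBTL1 was the member that differed between the groups, with higher transcript levels in subfertile heifers. Its levels in fertile 1 to 6 were 3.43, 5.18, 4.79, 4.00, 3.66 and 2.36 CPM. In subfertile 1 to 6 they were 3.77, 4.50, 6.07, 5.90, 6.66 and 6.35 CPM. Subfertile 3, 4, 5 and 6 lay above every fertile heifer, whereas subfertile 1 and 2 lay inside the fertile range, so the groups overlapped.

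L3MBTL1 averaged 3.90 ± 1.01 CPM (SD, n = 6) over the fertile heifers and 5.54 ± 1.14 CPM (SD, n = 6) over the subfertile ones. The log2 fold change (log2FC) of subfertile over fertile was 0.51 (SE 0.22, 95% confidence interval 0.02 to 0.99), or 1.42-fold (1.02 to 1.98), with an unadjusted P of 0.0407 in edgeR's quasi-likelihood test. The two-sided exact permutation test over every way to divide the 12 heifers equally gave P = 0.0325. These values pass the thresholds that the study used for a differentially expressed gene (an absolute log2FC of at least 0.5 with an unadjusted P no greater than 0.05), and the log2FC lies close to its threshold. Such calls were made for 182 of 13012 genes, or 1.40% of those tested, 86 of them (0.661%) higher in subfertile heifers. After Benjamini-Hochberg adjustment over all genes edgeR gave 0.9998 for L3MBTL1, and 0 genes passed 0.05 with edgeR or with DESeq2, against 341 genes (2.62%) at an unadjusted edgeR P no greater than 0.05.

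The L3MBTL1 result rests on few reads. Its raw counts ran from 39 in fertile 6 to 118 in subfertile 6, and counting alone gives a coefficient of variation of 11.6% at that depth, against 28.3% observed over the 12 heifers. DESeq2 called 230 genes (1.77%), L3MBTL1 among them, but it is the tool of the study, so this call repeats the study's own test. Voom with limma called L3MBTL1 too. When each heifer was left out in turn the log2FC stayed between 0.39 and 0.60, but both thresholds were passed in only 4 of 12 cases, those without fertile 2, fertile 3, subfertile 1 or subfertile 2. Without fertile 6, the library with the most platelet marker transcript and the lowest L3MBTL1, the log2FC was 0.39. With the tract score in the model it was 0.51, with an unadjusted edgeR P of 0.0508 that missed the threshold.

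**Figure D1:**
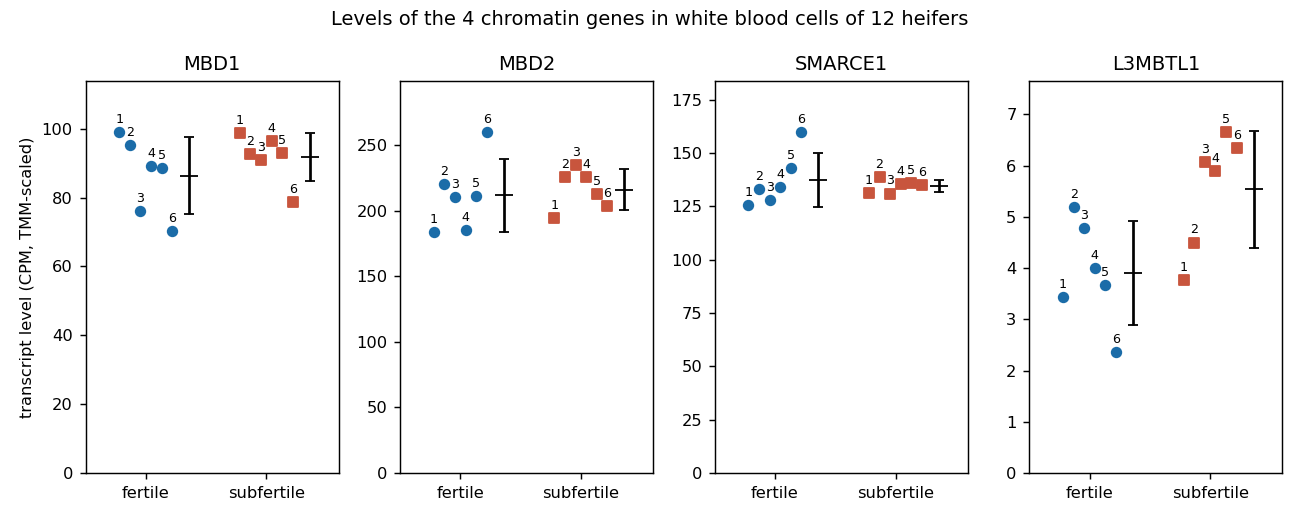
Transcript level of MBD1, MBD2, SMARCE1 and L3MBTL1 (vertical axes, CPM from 0, scaled by TMM) in each fertile (circles) and subfertile (squares) heifer, numbered 1 to 6, with the mean and SD of each group at its right. L3MBTL1 in subfertile 3 to 6 lies above the highest fertile value of 5.18 CPM, while in the other panels each group overlaps the other, with fertile 6 at an edge of every fertile group.

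MBD1 and MBD2, the methyl-CpG readers, did not differ between groups beyond the spread between heifers. MBD1 was at 99.0, 95.3, 76.2, 89.2, 88.7 and 70.2 CPM in fertile 1 to 6. In subfertile 1 to 6 it was at 98.9, 92.6, 91.0, 96.6, 93.0 and 78.7 CPM. The low heifers were fertile 3, fertile 6 and subfertile 6, and the groups overlapped almost entirely. The log2FC was 0.09 (SE 0.10, 95% confidence interval -0.12 to 0.29; edgeR adjusted P = 0.9998), so that folds above 1.23 or below 0.920 lie outside the interval.

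MBD2 was at 184, 220, 211, 185, 211 and 260 CPM in fertile 1 to 6. In subfertile 1 to 6 it was at 194, 226, 235, 225, 213 and 203 CPM. Its highest level was again in fertile 6, the heifer with the lowest MBD1, and its lowest was in fertile 1, the heifer with the highest MBD1. The log2FC of MBD2 was 0.03 (SE 0.10, 95% confidence interval -0.18 to 0.23; edgeR adjusted P = 0.9998), with folds from 0.886 to 1.18 inside the interval.

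SMARCE1, the BAF subunit, had the steadiest level of the members. It was at 126, 133, 128, 134, 143 and 160 CPM in fertile 1 to 6. In subfertile 1 to 6 it was at 131, 139, 131, 135, 136 and 135 CPM. All subfertile heifers lay within the fertile range, and fertile 6 alone was above 150 CPM.

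The log2FC of SMARCE1 was -0.03 (SE 0.08, 95% confidence interval -0.19 to 0.13; edgeR adjusted P = 0.9998). Its coefficient of variation over the 12 heifers was 6.47%, where counting alone gives 2.08%, and only 0.876% of the tested genes had a lower SD on the log2 CPM scale. The SD of SMARCE1 was 12.5 CPM among fertile and 2.92 CPM among subfertile heifers, a ratio of 4.29, and without fertile 6 the fertile SD was 6.70 CPM. MBD1 and MBD2 were also steady, with coefficients of variation of 10.4% and 10.1% and with 12.9% and 9.13% of genes lower in SD. L3MBTL1 varied more than 68.9% of genes. These ranks do not account for abundance. The share of genes with a lower mean level was 89.5% for SMARCE1, 82.3% for MBD1, 94.3% for MBD2 and 22.3% for L3MBTL1.

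Ratios of 2 members within the same heifer do not depend on how the libraries were scaled, and they were computed after these levels had been seen. Of the 6 ratios, SMARCE1 over L3MBTL1 was lower in subfertile heifers by a mean of 0.55 on the log2 scale (two-sided exact permutation P = 0.0433), with ratios of 25.7 to 67.8 in fertile and 20.5 to 34.8 in subfertile heifers. MBD2 over L3MBTL1 was lower by 0.49 (exact permutation P = 0.0476). Both had an adjusted P of 0.143 over the 6 ratios and did not pass that correction. The 4 ratios left gave exact permutation P values of 0.0823 to 0.751. The highest ratio of each of the 3 members to L3MBTL1 was found in fertile 6, and the ratios were not tested without that heifer.

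The chromatin partners of the 4 proteins were read from lists of 89 genes, of which 23 carried a name in the tables used and passed the filter. With so few matched, the lists are described by counts only, and the named genes are not a random sample of them. Names came from the study's supplementary tables, which include its differentially expressed genes. A called gene was therefore more likely to carry a name, and the count called among the 23 is no measure of enrichment. Of the 23, 2 passed the study's thresholds, both higher in subfertile heifers, where 0.661% of all genes were called higher and 1.40% in either direction. The count was 0 without fertile 2 and without fertile 5. It includes SCML2, which passed the filter mostly through the subfertile libraries, so it is a description only. A log2FC above 0 was found for 12 of the 23 and for 6741 of all 13012 genes. Their median log2FC was 0.02, against 0.01 over all genes tested.

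Among the methyl-CpG readers and relatives of the MBD family, 3 of 14 genes were tested and 1 was called. This was UHRF1, which binds hemimethylated DNA and guides the maintenance methyltransferase, with a log2FC of 0.81 (SE 0.36; edgeR adjusted P = 0.9998). The fertile heifers were at 14.4 to 18.6 CPM with a median of 16.8 CPM, and the subfertile heifers at 14.6 to 79.2 CPM with a median of 20.1 CPM. The call rests on subfertile 3, at 79.2 CPM, since without it the log2FC was 0.22 and UHRF1 was not called, and the exact permutation test over all heifers gave P = 0.134. UHRF1 was called in 5 of 12 fits that left out a heifer, and not with voom or with the tract score in the model. SETDB1 and SETDB2, both members of the H3 lysine 9 methyltransferase family, each had a log2FC of 0.07.

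Of the partners of MBD1 and the H3 lysine 9 pathway, 4 of 12 genes were tested and 0 were called. ATF7IP, the bridge between MBD1 and SETDB1, had a log2FC of 0.10 (SE 0.14). CBX1, a heterochromatin protein that binds methylated H3 lysine 9, averaged 12.4 ± 2.46 CPM (SD, n = 6) over the fertile heifers and 9.77 ± 1.28 CPM (SD, n = 6) over the subfertile ones, with a log2FC of -0.34 (SE 0.16) that did not pass either threshold.

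Of NuRD, the complex that MBD2 belongs to, 2 of 14 genes were tested and 0 were called. The scaffold subunit GATAD2A had a log2FC of -0.05 (SE 0.08) and the histone-binding subunit RBBP7 of 0.07 (SE 0.10). The BAF and PBAF complexes, which SMARCE1 belongs to, had 8 of 29 genes tested and 0 called, with log2FC from -0.26 to 0.18. DPF2, a subunit with histone-reading fingers, was at 127 to 231 CPM in fertile and 124 to 154 CPM in subfertile heifers, with its highest level in fertile 6 as for SMARCE1. ACTL6A, an actin-related subunit, had a log2FC of 0.18 (SE 0.12), and BCL7C, an accessory subunit, of -0.25 (SE 0.22).

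Among the MBT domain proteins and the enzymes of H4 lysine 20 methylation, to which L3MBTL1 is related, 5 of 14 genes were tested and 1 was called. SCML2, a Polycomb-related MBT protein, was at 0 to 0.845 CPM in fertile and 0.357 to 0.996 CPM in subfertile heifers, with a log2FC of 1.58 (SE 0.63; edgeR adjusted P = 0.9998). Its raw counts were at most 18 in any library, and it passed the filter on low counts mostly through the subfertile libraries, where it is high, so its call is given as a description only. The log2FC was 2.54 without fertile 1, the fertile heifer at 0.845 CPM, and 1.33 without fertile 6, and SCML2 was called in 10 of 12 fits that left out a heifer. L3MBTL2 and SCMH1, the other MBT proteins tested, had log2FC of -0.22 (SE 0.18) and 0.14 (SE 0.25). Of the writers and erasers of DNA methylation, 2 of 8 genes were tested and 0 were called: TDG, which excises oxidised methylcytosine, had a log2FC of 0.19 (SE 0.13) and TET3, which oxidises it, of -0.05 (SE 0.22).

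**Figure D2:**
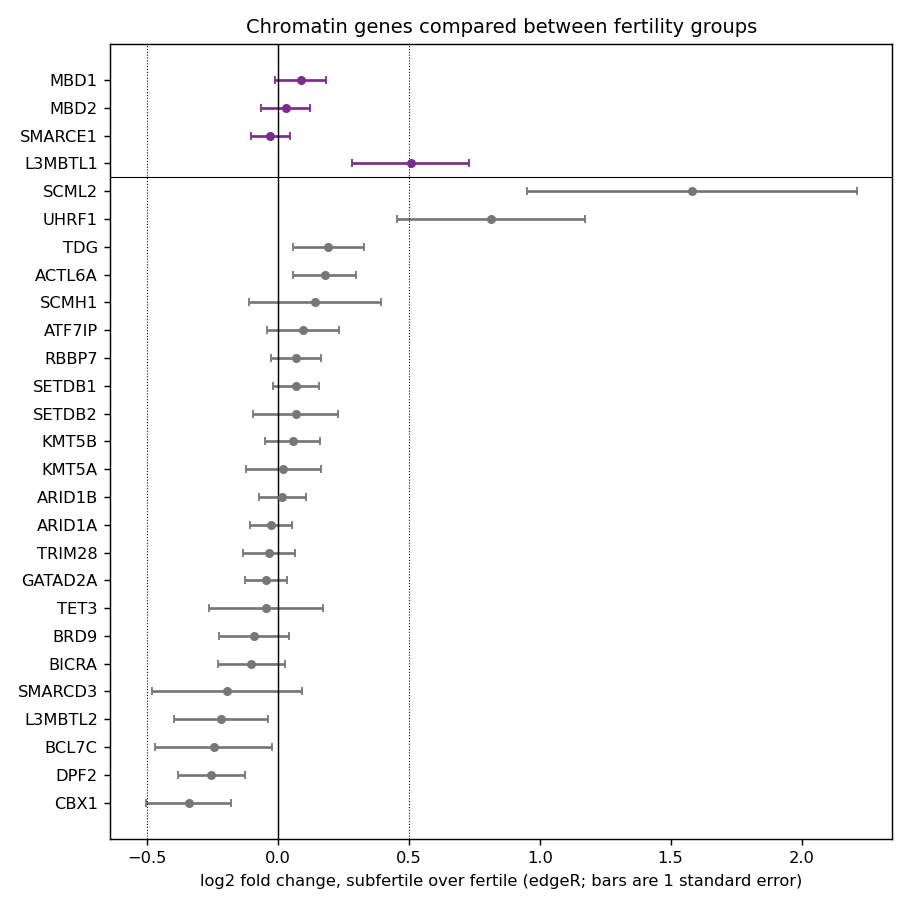
Log2 fold change of subfertile over fertile heifers (horizontal axis, edgeR, bars of 1 SE) for the 4 members (top) and the 23 named genes of the chromatin lists, with dotted lines at the threshold of 0.5 in either direction. L3MBTL1 at 0.51, UHRF1 at 0.81 and SCML2 at 1.58 lie past the threshold, and all other points lie between -0.34 and 0.19.

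Across the 12 heifers the members were compared pair by pair on log2 CPM, giving 6 relations with permutation P values from 100000 resamples. MBD2 and SMARCE1 had the strongest relation, with Pearson's r = 0.68 (permutation P = 0.0160, adjusted P = 0.0962) and Spearman's rho = 0.52 (permutation P = 0.0880). It did not pass the correction, and r was 0.08 once fertile 1 and fertile 6, the heifers farthest from the median of MBD2, were left out. Within the fertile heifers r was 0.81 and within the subfertile heifers 0.18, and the exact permutation test of that difference gave P = 0.355. This relation therefore rests on fertile 1 and fertile 6.

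The other 5 relations did not pass the correction either (adjusted permutation P = 0.182 to 0.849 for r). MBD1 ran opposite to SMARCE1 with r = -0.56 and to MBD2 with r = -0.45, and without fertile 6 they were -0.02 and -0.05. With library size as the only scaling they were 0.15 and -0.11. Without fertile 3, MBD1 with SMARCE1 was at -0.81 and passed the correction (adjusted permutation P = 0.0446). L3MBTL1 had r = 0.30 with MBD1, -0.06 with MBD2 and -0.51 with SMARCE1, and each changed sign without fertile 6, to -0.27, 0.62 and 0.12. Within groups, r had opposite signs in fertile and subfertile heifers for 4 of the 6 pairs, and the same sign for MBD1 with SMARCE1 and MBD2 with SMARCE1. Without fertile 6, the fertile r of MBD1 with L3MBTL1 went from 0.47 to -0.38, beside -0.52 in subfertile heifers. That of MBD2 with L3MBTL1 went from -0.44 to 0.71, beside 0.38, so both then had the subfertile sign. MBD1 with MBD2 (-0.33) and SMARCE1 with L3MBTL1 (-0.11) kept opposite signs. None of the 6 differences passed an exact permutation test, with P from 0.253 to 0.734 and an adjusted P of 0.734 for each.

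**Figure D3:**
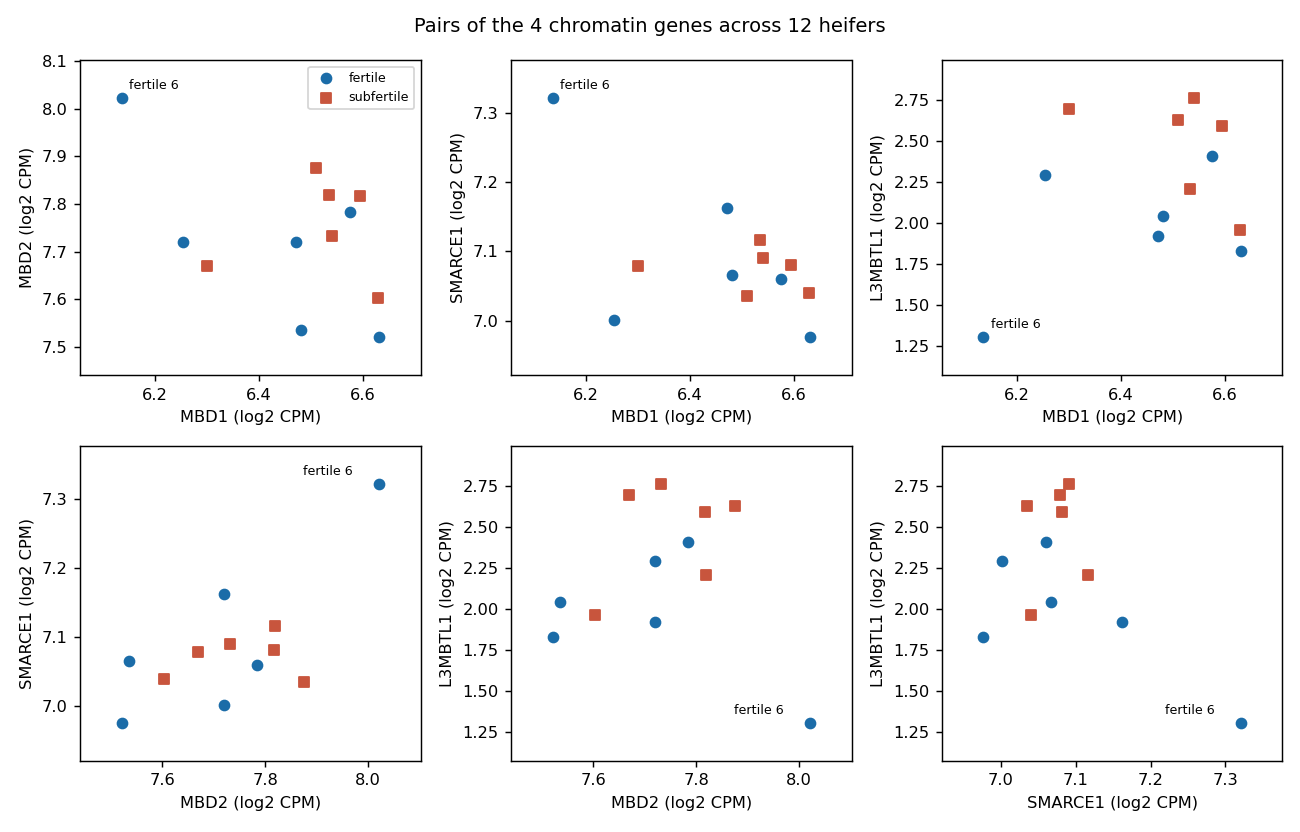
Each pair of members plotted against each other on the log2 CPM scale in 12 heifers, fertile as circles and subfertile as squares. Fertile 6 lies away from the other 11 heifers in every panel, and the r of 0.68 between MBD2 and SMARCE1 falls to 0.36 without it.

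The genes whose levels followed each member most closely over the 12 heifers are given as a description, since all points share the same libraries. MBD1 was followed most closely by GALC, a lysosomal galactolipid enzyme (r = 0.96), and NFKBIZ, a nuclear regulator of NF-kappaB, had r = 0.91. SUMO2, a ubiquitin-like modifier, ran most nearly opposite to MBD1 (r = -0.96). MBD2 was followed by CMPK1, a nucleotide kinase (r = 0.94), by H3-3A, which encodes the replacement histone H3.3 (r = 0.92), and by NT5C3A, a pyrimidine nucleotidase (r = 0.91). MMD (r = 0.87) and RPS27L (r = 0.87) completed its nearest 5.

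SMARCE1 was followed by OSBPL5, a lipid transfer protein (r = 0.92), and SLC25A17, a peroxisomal carrier (r = 0.91), and L3MBTL1 by CENATAC (r = 0.88), a protein of the minor spliceosome, and CDO1 (r = 0.87), a cysteine dioxygenase. The remaining nearest genes, 3 each for MBD1, SMARCE1 and L3MBTL1, carry no name in the tables used. The nearest 5 genes of MBD2 and of SMARCE1 all had their highest level in fertile 6, and those of MBD1 all had their lowest there. The study singles out ESR1, the oestrogen receptor, beside SMARCE1, and their r was 0.97 within fertile and -0.39 within subfertile heifers, with ESR1 at 13 to 128 counts. It was 0.91 among the fertile heifers without fertile 6. The study drew this pair from the same fertile heifers at an absolute r of at least 0.95. The high fertile r follows from that choice, so its contrast with the subfertile r is no independent evidence.

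Connections were counted within each group as the genes whose log2 CPM had an absolute Pearson r of 0.95 or more with the member over the 6 heifers. MBD2 had 120 connections in fertile heifers, 105 of them positive, and 17 in subfertile heifers, 10 of them positive. SMARCE1 had 179 in fertile heifers (79 positive, 100 negative) and 89 in subfertile heifers (53 positive, 36 negative). MBD1 had 54 and 33 connections and L3MBTL1 had 66 and 84, in fertile and subfertile heifers respectively. The median over all tested genes was 56 in fertile and 62 in subfertile heifers.

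MBD1, MBD2 and SMARCE1 thus had more connections in fertile heifers, as did 42.4% of all genes, and L3MBTL1 had more in subfertile heifers, as did 56.7%. With library size as the only scaling, MBD1 and SMARCE1 instead had more in subfertile heifers, with fertile minus subfertile differences of -100 and -350, and L3MBTL1 had more in fertile heifers by 17, whereas the difference of MBD2 was 16 in place of 103. Exact permutation tests over the same divisions gave P = 0.212 for MBD2, 0.582 for SMARCE1, 0.786 for MBD1 and 0.831 for L3MBTL1, each 0.831 after adjustment over the 4 members. Of all genes, 28.4% had a difference in either direction as large as that of MBD2, and 5.06% had one toward the fertile group. Without fertile 6 the difference of MBD2 was 26 in place of 103, and that of SMARCE1 was -44 in place of 90.

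The number of partners that a member kept in both groups was 0 to 2, and over all tested genes the median was 0, with 2 or fewer for 81.1% of genes. GALC was connected to MBD1 in both groups (r = 0.98 in fertile and 0.95 in subfertile heifers), and SMARCE1 shared 2 partners without a name, ENSBTAG00000015248 and ENSBTAG00000034295. MBD2 and L3MBTL1 shared 0 partners. With each heifer left out in turn, the fertile minus subfertile difference ran from 26 to 164 for MBD2 and from -61 to 141 for SMARCE1. It ran from 15 to 79 for MBD1 and from -53 to 46 for L3MBTL1, so the directions of SMARCE1 and L3MBTL1 turned.

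**Figure D4:**
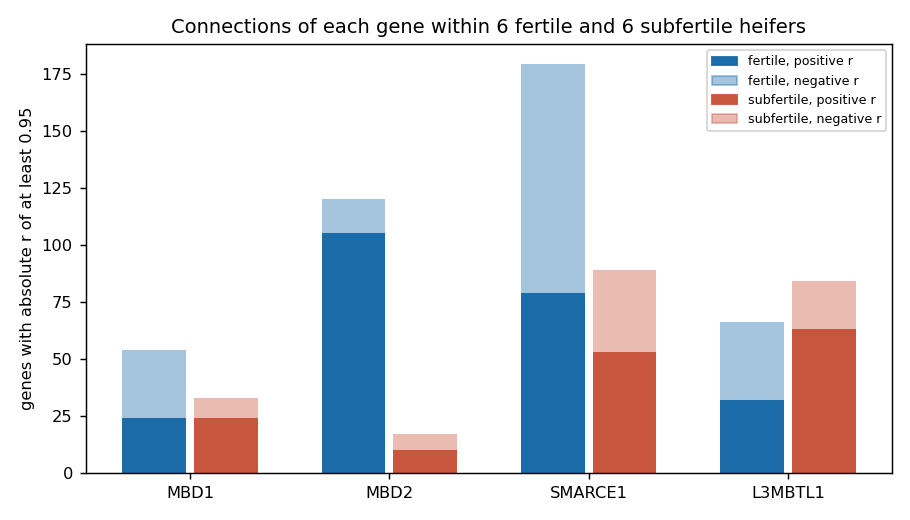
Number of genes with an absolute r of at least 0.95 with each member (vertical axis) within the 6 fertile (blue) and the 6 subfertile (red) heifers, dark for positive and pale for negative r. The bar of MBD2 falls from 120 to 17, and that of SMARCE1 from 179 to 89, and neither difference passed the exact permutation test.

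Levels of 3 of the 4 members were related to markers of blood cell types by Pearson's r, in 5 relations of which 1, SMARCE1 with T cell markers, also passed by rank. The 20 relations tested, 4 members by 5 marker sets, were computed after seeing the data, on the log2 of the summed marker level, and CXCR2 was left out since it was 0 in fertile 6. The relations were not run under other scalings, and only those with platelet markers were run with each heifer left out in turn. The T cell and platelet sums were both highest in fertile 6, so relations with these sums are not independent of each other. SMARCE1 rose with the 3 platelet markers (r = 0.83, permutation P = 0.00194, adjusted P = 0.0277; rho = 0.71, adjusted permutation P = 0.0772), with r = 0.89 within fertile and 0.72 within subfertile heifers and 0.60 without fertile 6. It was 0.40 without fertile 1 and fertile 6, the heifers farthest from the median of the marker sum. SMARCE1 also rose with the T cell markers CD3E and CD2 (r = 0.75, permutation P = 0.00277, adjusted P = 0.0277; rho = 0.87, adjusted permutation P = 0.00920). There r was 0.95 within fertile and 0.90 within subfertile heifers, 0.69 without fertile 6, and 0.88 without subfertile 1 and subfertile 3, the farthest heifers. The matched T cell markers were 2 of 8 on the list. Absolute r as large was found for 11.9% of all genes with the T cell markers and for 4.84% with the platelet markers.

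MBD1 fell as the platelet markers rose (r = -0.70, adjusted permutation P = 0.0484; rho = -0.50, adjusted permutation P = 0.304), and MBD2 rose with them (r = 0.70, adjusted permutation P = 0.0484; rho = 0.49, adjusted permutation P = 0.304). Without fertile 6, none of the platelet relations passed the correction over the 4 members (adjusted permutation P = 0.183 for each). Leaving out fertile 1 alone also ended the calls of MBD1 and MBD2 (adjusted permutation P = 0.0546 and 0.0615). Without fertile 1 and fertile 6 the r of MBD1 and MBD2 were -0.28 and 0.21, so both relations rest on those heifers, and absolute r as large was found for 16.4% and 15.9% of all genes. MBD1 rose with the monocyte markers VCAN and CD68 (r = 0.74, adjusted permutation P = 0.0345; rho = 0.76, adjusted permutation P = 0.0562), at 0.71 within fertile and 0.76 within subfertile heifers, and r was 0.51 without fertile 6 and subfertile 4. Absolute r as large with the monocyte markers was found for 3.20% of genes. The matched monocyte markers were 2 of 5 on the list.

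L3MBTL1 had r = -0.26 with the platelet markers and passed the correction with none of the 5 marker sets. The matched platelet markers were 3 of 7 on the list. Their summed level was 171 to 2208 CPM in fertile and 179 to 648 CPM in subfertile heifers, and no difference between the groups passed the test (exact permutation P = 0.374). In every library ITGB3 made up most of that sum, at 1930 CPM in fertile 6 and 106 CPM in fertile 1, so the platelet relations rest largely on this gene. The part of cell composition in the levels of MBD1, MBD2 and SMARCE1 was not tested.

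**Figure D5:**
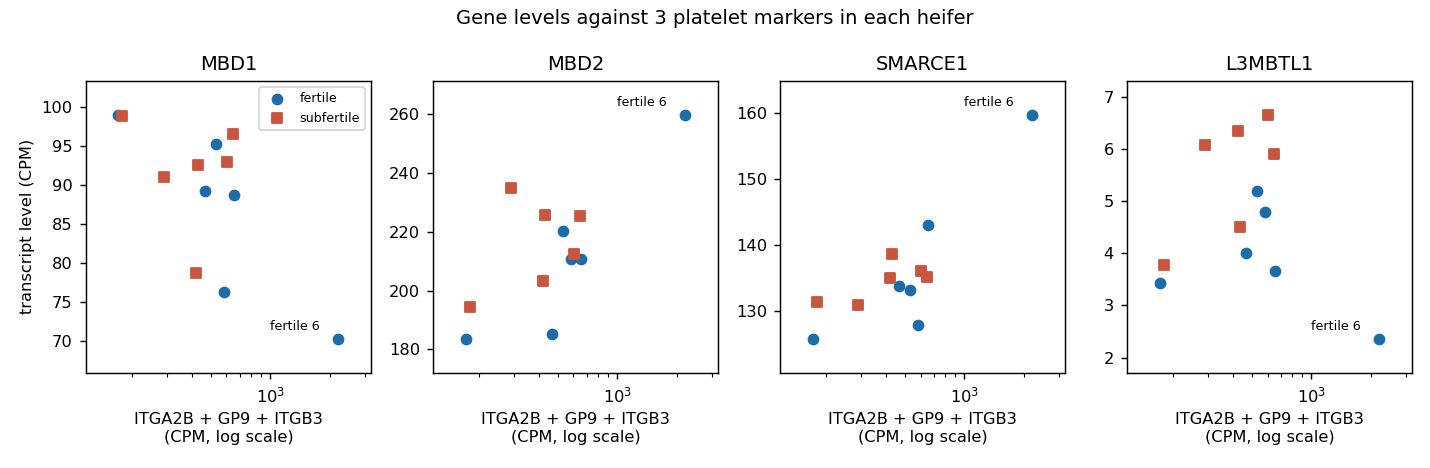
Level of each member (vertical axes, CPM, not from 0) against the summed level of ITGA2B, GP9 and ITGB3 (horizontal axes, CPM, log scale) in 12 heifers, fertile as circles and subfertile as squares. Fertile 6, at 2208 CPM of platelet markers, has the highest MBD2 and SMARCE1 and the lowest MBD1 and L3MBTL1.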

How the data were processed

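RNA of PWBCs from 12 heifers (6 fertile, 6 subfertile) was extracted by the authors in a single batch and sequenced as strand-specific poly(A) libraries. The authors mapped the reads with STAR 2.7.5 to ARS-UCD1.3 and deposited raw counts per Ensembl gene without normalization or filtering; which strand column was taken is not stated. Reads of overlapping genes may thus be uncertain, and in RefSeq on ARS-UCD2.0 none of the 4 genes overlaps its protein-coding neighbours. No sequence was used, and no coordinates are given.

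Counts were filtered with filterByExpr (minimum count 10), scaled by TMM and tested with edgeR 4.0.16 (quasi-likelihood test, group as the only term) in R 4.3.3, with Benjamini-Hochberg adjustment over 13012 genes. CPM uses TMM-scaled library sizes, and log2 CPM a prior count of 2. Intervals cover 95%. Exact permutation tests ran over all equal divisions of the heifers (smallest possible P 0.00216), in Python 3.11.15 with scipy 1.17.1; correlations used 100000 resamples. Within a group, the chi-square of 2 libraries was at least 18.3 per gene, so no library was counted as a copy of another. Alternatives were DESeq2 1.42.0, voom with limma 3.58.1, RLE or library size scaling, other filters, the tract score in the model, variance-stabilized counts, a prior count of 0.5, an r of 0.90, and each heifer left out in turn; with 5 heifers the r threshold was set to 0.979 to match the P of 0.95 with 6. Marker relations, within-heifer ratios and the background of connections were added after seeing the data. The scripts were tested on simulated data.

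Members, gene lists and tests were chosen with earlier results of these data known. Gene names came from the study's supplementary tables, of which 2883 names were used. The genes named are the members, list genes called or among the 3 smallest P of their list, the 5 genes most like each member and ESR1; SUMO2, which runs opposite to MBD1, and the shared partners were added after their values were seen, and markers are named by their lists. Of the marker lists, 1 gene is not reported here and entered no sum. Proteins were not analysed here.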

Additional observations from a re-analysis of the deposited data

Results flagged for a closer look

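Over the members, named list genes and markers, 10 of 58 groups of 6 had a highest or lowest heifer set apart. Its gap to the nearest other exceeded 0.625 of the group's range, a limit that independent normal values pass in about 1 group in 20. These groups share the same heifers and include platelet markers already seen to be high in fertile 6, so the count cannot be set against that rate. None of the 10 was a group of MBD1, MBD2, SMARCE1 or L3MBTL1. Fertile 6 was the heifer in 5 of them, with ITGB3 at 1930 CPM, ITGA2B at 247 CPM, GP9 at 31.2 CPM, DPF2 at 231 CPM and SCMH1 at 8.22 CPM. Among the fertile heifers, fertile 1 was highest for ATF7IP at 133 CPM and SCML2 at 0.845 CPM. In the subfertile group, UHRF1 was at 79.2 CPM in subfertile 3, SETDB1 at 102 CPM in subfertile 1 and PRF1 at 108 CPM in subfertile 4.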

How the results depend on the processing

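The log2FC of L3MBTL1 stayed above 0 under every alternative run; it was 0.51 with the tract score in the model and 0.39 to 0.60 with each heifer left out, where it was called in 4 of 12. The others stayed below the thresholds, at 0.03 to 0.13 for MBD1, -0.0079 to 0.093 for MBD2 (-0.0079 without fertile 1, -0.0064 without fertile 4) and -0.052 to 0.016 for SMARCE1 (0.016 without fertile 6). Called genes were 624 among all genes with at least 1 count, and 118 (without fertile 6) to 365 (without fertile 1) with a heifer left out; they split 86 higher and 96 lower, or 75 and 68 with voom, and 74 and 111 with library size only. List genes called were 1 with voom or with the tract score (UHRF1 lost) and 1 with 10 counts in every library (SCML2 not tested), and 0 to 2 with a heifer left out. With a heifer left out, r was -0.54 to -0.05 for MBD1 with MBD2, -0.81 to -0.019 for MBD1 with SMARCE1 (0.15 with library size only), -0.27 to 0.47 for MBD1 with L3MBTL1, 0.36 to 0.78 for MBD2 with SMARCE1, -0.23 to 0.62 for MBD2 with L3MBTL1 and -0.70 to 0.12 for SMARCE1 with L3MBTL1. MBD1 with SMARCE1 passed the correction without fertile 3, as did MBD2 with SMARCE1 without fertile 3 or subfertile 3. With the platelet markers r was -0.77 to -0.42 for MBD1, 0.46 to 0.84 for MBD2, 0.60 to 0.91 for SMARCE1 and -0.47 to 0.44 for L3MBTL1. Fertile minus subfertile connections were -100 for MBD1, -350 for SMARCE1 (exact permutation P = 0.0498, adjusted 0.199), 17 for L3MBTL1 and 16 for MBD2 with library size only, and with a heifer left out 15 to 79 for MBD1, 26 to 164 for MBD2, -61 to 141 for SMARCE1 and -53 to 46 for L3MBTL1. Without fertile 6 none of the platelet relations passed the correction, and without fertile 1 those of MBD1 and MBD2 did not. The cause of these shifts was not tested. No paired analysis was possible because the labels tie no fertile heifer to a subfertile one. The heifer numbers used here only count heifers within each group. Among the 4 members L3MBTL1 had the fewest counts, 39 to 118.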
